A study of Rattus norvegicus with 96 samples.

Results

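Rasl10b (ENSRNOG00000010302, on chromosome 10) was followed across the ventral tegmental area (VTA), the core of the nucleus accumbens (NAc core) and its shell (NAc shell) of rats given nicotine (NIC) or saline (SAL). It is 1 of 17637 genes in the count table and was selected on its difference between NIC and SAL in NAc core, so its NAc core levels are described here without a test. The rats were F1 offspring of the inbred Fischer-344 (F344) and Brown Norway (BN) strains, from the initial cross and its reciprocal, and the labels used here do not give the cross of each rat. Males and females received 0.4 mg/kg of NIC or saline daily for 4 days. By the labels the tissue was taken on day 17, with no further NIC, so all groups shared the injections and a drug-free interval. Each library came from hand-dissected tissue of 1 rat and 1 region, and 94 of 96 libraries entered, in 12 groups of sex, region and treatment. Each group held 8 libraries except male VTA SAL (n = 7) and female NAc core NIC (n = 7).

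Rasl10b encodes a small GTPase of the Ras family. Such GTPases switch between a GTP-bound active state and a GDP-bound inactive state under the control of exchange factors and GTPase-activating proteins, and many of them relay signals from receptors at the cell membrane. Rasl10b, also called RRP17, has been studied mainly in heart muscle, where it has been linked to the release of atrial natriuretic peptide, and much less is known of it in the brain. The NAc receives dopamine input from neurons of the VTA, and both regions are central to the response to NIC.

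The libraries held between 15868529 and 27736905 estimated counts, and Rasl10b took between 51 and 796 of them, so it was measured at low to moderate depth in every library. Levels are given as CPM, the share of a library's counts scaled to a common total, after correction by the trimmed mean of M-values (TMM). Th, the rate-limiting enzyme of dopamine synthesis, was at no more than 3.89 CPM in the NAc core libraries used and at 17.9 CPM or more in the VTA libraries. The library labelled female NAc core NIC 1 held 329 CPM of Th and was left out with a second library of male VTA SAL rat 5. Some libraries that stayed in also stood apart. Female VTA NIC 2 had the lowest summed dopaminergic neuron markers of its region (136 CPM, against a median of 2307 CPM) and the highest summed choroid plexus markers (2780 CPM). Male SAL 1 had the lowest summed striatal projection neuron markers of its region in NAc core (417 CPM, median 3306) and in NAc shell (354 CPM, median 2654). Male NIC 9 stood apart in both NAc regions. Its NAc core library held 36.3 CPM of summed dopaminergic markers (59.1 to 104 CPM in the other male core libraries), 1707 CPM of cortical projection neuron markers (2562 to 4123), 44.3 CPM of choroid plexus markers (6.76 to 24.4) and 1481 CPM of meningeal fibroblast markers (371 to 1045). Its NAc shell library held 63.5 CPM of dopaminergic markers (23.3 to 40.1 CPM in the other male shell libraries), 11.4 CPM of choroid plexus markers (27.0 to 428) and 617 CPM of meningeal fibroblast markers (739 to 1336). For dopaminergic, choroid plexus and fibroblast markers, each of these libraries thus lay outside the male range of its labelled region, on the side of the other region. The labels were kept, whether these libraries were exchanged was not tested, and the main values that rest on them are given also without them, a choice made after seeing the data. In bulk tissue, a change in the number of cells that express a gene and a change in RNA per cell cannot be told apart. The labels give each library a preparation batch, a letter from A to L. Sex, the box number in the library titles and batch go together almost completely, and batch L alone held both sexes.

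In male NAc core, Rasl10b lay at a lowest, median and highest level of 14.1, 16.7 and 29.2 CPM in NIC rats and 4.36, 8.70 and 12.9 CPM in SAL rats. The groups did not overlap: each of the 8 NIC libraries was above each of the 8 SAL libraries. The means were 18.3 ± 4.92 CPM in NIC and 9.05 ± 3.05 CPM in SAL (SD, n = 8 each). NIC was thus 2.01-fold higher, or 1.01 on the log2 scale (SE 0.20). Every NIC library was above every SAL library for 5 of 16879 genes tested (0.0296%), and 9.83% of genes had an unadjusted p under 0.05 in either direction in this comparison. These shares are printed as background only, since this contrast chose the gene. In each of the 6 comparisons of NIC and SAL, edgeR left 0 of 16879 genes below an adjusted p of 0.05, while 415 to 1709 genes had an unadjusted p under 0.05. DESeq2 called 0 to 9 genes a comparison at an adjusted p under 0.05. The highest library was NIC 9 at 29.2 CPM, and without it the log2 fold change was 0.88. Without SAL 1, whose striatal markers were low, it was 0.97.

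In female NAc core the same direction was seen with a different spread. The 7 NIC libraries held 6.66, 7.54, 7.90, 12.8, 20.6, 22.1 and 28.4 CPM, and the 8 SAL libraries ran from 4.38 through a median of 5.93 to 7.82 CPM. The NIC rats thus fell into 3 with values close to the upper SAL values and 4 well above them. Of the 7 NIC libraries, 5 were above every SAL library and 2 were within the SAL range, and the lowest of those 5, at 7.90 CPM, was barely above the highest SAL library at 7.82 CPM. The means were 15.1 ± 8.59 CPM in NIC (SD, n = 7) and 5.99 ± 1.46 CPM in SAL (SD, n = 8). NIC was 2.53-fold higher, or 1.34 on the log2 scale (SE 0.28). Whether the difference was larger in females than in males was not tested. In this comparison 6.45% of the genes tested had an unadjusted p under 0.05. Leaving out NIC 8, the highest, gave a log2 fold change of 1.11. With the library labelled NIC 1 included it was 1.30.

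**Figure D1:**
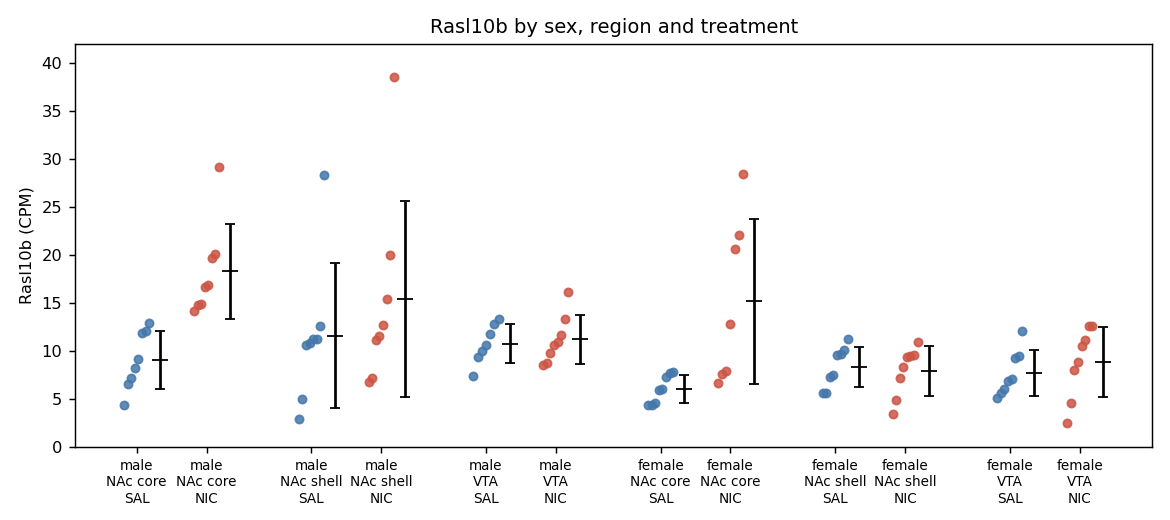
Rasl10b level (CPM, vertical axis) in each of the 94 libraries, by sex, region and treatment (SAL in blue, NIC in red), with the mean and SD of each group beside its points. The NIC points of male NAc core start at 14.1 CPM, above the highest SAL point at 12.9 CPM, while in shell and VTA the NIC and SAL points overlap in both sexes.

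Preparation batch was only partly shared between the treatments. In males, batch C held 4 NIC core libraries, at 14.9 to 29.2 CPM, and 2 SAL core libraries, at 6.50 and 12.1 CPM, so the treatments did not overlap there either. The log2 fold change within this batch was 1.10 (SE 0.33). In females, batch J held 2 NIC core libraries, at 7.90 and 28.4 CPM, and 2 SAL core libraries, at 5.88 and 7.82 CPM. Both NIC values were above both SAL values, but 1 of them by a narrow margin. The log2 fold change within batch J was 1.41 (SE 0.51). A fit with batch as a covariate gave 1.11 (SE 0.31) in males and 1.41 (SE 0.62) in females. Without NIC 9 both male values were 0.88 (SE 0.25 within batch C and 0.28 with the covariate).

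**Figure D2:**
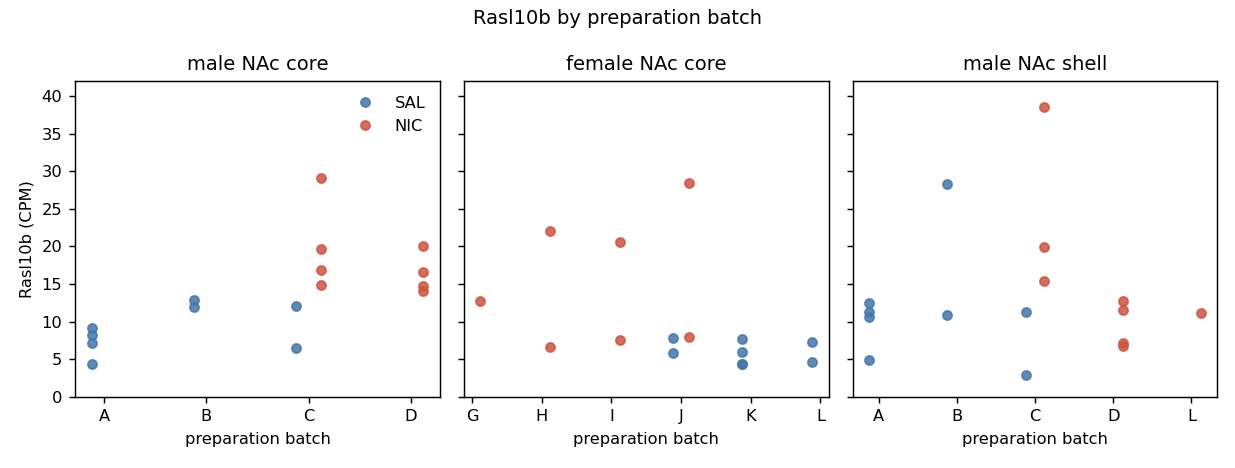
Rasl10b level (CPM, vertical axis) by preparation batch (letters, horizontal axis) in male NAc core, female NAc core and male NAc shell, with SAL libraries in blue and NIC libraries in red. Only batch C in males and batch J in females held both treatments, and in male NAc shell the 3 NIC libraries of batch C lie above the 4 NIC libraries of batch D.

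Markers of other cell types were read beside the NAc core values. Of 10 meningeal fibroblast genes, 9 had an unadjusted p under 0.05 and higher levels in NIC in male NAc core, among them Igf2 (a growth factor, log2 fold change 0.53), Col1a2 (a chain of type I collagen, 0.67) and Bgn (biglycan, a matrix proteoglycan, 0.42). Against this stood 9.83% of all genes, and without NIC 9, the library with the highest sum, 5 of the 10 were higher against 6.2% of all genes. All 10 were among the genes this study's own tables name. Members of the other marker lists were also matched only through those tables. Counts in these lists are thus not independent evidence of change. The summed level of the 10 genes ran from 524 through 856 to 1481 CPM in NIC and from 371 through 653 to 805 CPM in SAL (lowest, median and highest), so the groups overlapped. With this sum as a covariate, a fit chosen after seeing the data, the log2 fold change of Rasl10b in male NAc core was 0.88 (SE 0.24), and 0.92 (SE 0.22) without NIC 9. In female NAc core none of the 10 genes had an unadjusted p under 0.05, and the sums were 355 to 655 CPM in NIC and 232 to 731 CPM in SAL. Striatal projection neuron markers gave 0 of 12 with an unadjusted p under 0.05 in male NAc core and 2 of 12 lower in NIC in female NAc core. In male NAc core, 2 of 6 mural cell genes were higher in NIC (Notch3, log2 fold change 0.45, and Pdgfrb, 0.28), as were 2 of 8 oligodendrocyte precursor genes (Gpr17, 0.45, and Pdgfra, 0.22), 2 of 7 endothelial genes (Cdh5, 0.30, and Tek, 0.19), 1 of 7 oligodendrocyte genes (Mobp, 0.25) and 1 of 8 choroid plexus genes (Aqp1, 0.64). Lower in NIC there were 1 of 5 cortical projection neuron genes (Nrgn, -0.35), 1 of 7 GABA interneuron genes (Sst, -0.18) and 1 of 9 dopaminergic genes (En2, at or near 0 CPM). Without NIC 9 the endothelial, choroid plexus and dopaminergic counts were 0. In female NAc core, against 6.45% of all genes, 3 of 7 microglial genes were higher in NIC (among them Cx3cr1, the fractalkine receptor, 0.36, and Itgam, 0.27), as were 1 of 5 cortical projection neuron genes (Camk2a, 0.37) and 1 of 2 red blood cell genes (Hba-a3, 0.58), and 1 of 7 hypothalamic genes was lower (Hcrt, under 1 CPM). After group means were removed, Rasl10b in male NAc core had an r of -0.62 with the summed GABA interneuron genes, -0.61 with the cortical projection neuron genes and -0.54 with the dopaminergic genes, against 0.17 with the fibroblast genes, and without NIC 9 the first 3 were -0.47, -0.45 and -0.34. Other lists went the opposite way, with 0.46 for cholinergic neuron, 0.42 for striatal projection neuron and 0.34 for mural genes, and were not used as covariates. With each of the first 3 sums as a covariate in turn, fits chosen after seeing the data, the log2 fold change of Rasl10b in male NAc core was 0.70 (SE 0.18), 0.74 (SE 0.18) and 0.85 (SE 0.18). In female NAc core the r were -0.32, 0.061 and -0.55, and the log2 fold changes were 1.22 (SE 0.29), 1.25 (SE 0.31) and 1.44 (SE 0.25). The part of the other markers was not tested. For each matched cell type list, the summed levels of NIC and SAL libraries overlapped in both NAc core comparisons.

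In NAc shell, whose libraries did not choose the gene, the difference between NIC and SAL was not larger than the spread between rats. In males, Rasl10b ran from 6.77 through a median of 12.1 to 38.5 CPM in NIC and from 2.90 through 11.0 to 28.4 CPM in SAL. Both groups had 1 library far above the rest, NIC 9 at 38.5 CPM and SAL 6 at 28.4 CPM, and 7 of 8 NIC libraries lay within the SAL range. The log2 fold change was 0.41 (SE 0.39, 95% interval -0.42 to 1.24), with an unadjusted p of 0.31 and an adjusted p of 1 by edgeR's quasi-likelihood test, where 2.46% of genes had an unadjusted p under 0.05. Permuting the treatment labels exactly (two-sided, on log2 CPM) gave p = 0.33. Single rats moved this value widely: it was 0.056 without NIC 9, 0.26 without SAL 7, 0.30 without SAL 1 (low in striatal markers) and 0.74 without SAL 6. Within batch C the 3 NIC libraries held 15.4, 20.0 and 38.5 CPM and the 2 SAL libraries held 2.90 and 11.2 CPM, with a log2 fold change of 1.79 (SE 0.56), an unadjusted p of 0.012 and an adjusted p of 0.25 by edgeR. The fit with batch as a covariate also gave 1.79 (SE 0.59, unadjusted p = 0.0083, adjusted p = 0.34 by edgeR). NIC 9 is among these 3 NIC libraries, and without it the values were 1.32 (SE 0.52, unadjusted p = 0.039, adjusted p = 0.52 by edgeR) within batch C and 1.32 (SE 0.59, unadjusted p = 0.042, adjusted p = 0.73) with batch as a covariate. The value was therefore larger within the shared batch than over all libraries, and it did not pass the adjusted threshold in any fit.

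In female NAc shell, Rasl10b ran from 3.45 through 8.83 to 11.0 CPM in NIC and from 5.60 through 8.50 to 11.2 CPM in SAL. Of the 8 NIC libraries, 6 lay within the SAL range and none was above every SAL library. NIC 5 and NIC 7, at 3.45 and 4.88 CPM, were below every SAL library. The log2 fold change was -0.064 (SE 0.21, 95% interval -0.50 to 0.37), with an adjusted p of 0.94 by edgeR, where 10.1% of genes had an unadjusted p under 0.05. The exact permutation test (two-sided) gave p = 0.65. The interval reached 1.29-fold at its upper end and 0.71-fold at its lower end. With batch as a covariate the log2 fold change was -0.25 (SE 0.40, adjusted p = 1 by edgeR), and within shared batches it was also -0.25 (SE 0.36). The difference between the sexes in the NIC effect was itself tested in NAc shell: the interaction of sex and treatment was 0.48 on the log2 scale (SE 0.47, 95% interval -0.49 to 1.44, adjusted p = 0.81 by edgeR), where 8.07% of genes had an unadjusted p under 0.05. It was 0.13 without male NIC 9 and 0.81 without male SAL 6 (unadjusted p = 0.069, adjusted p = 0.70 by edgeR).

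In VTA the treatments also overlapped in both sexes. Male VTA libraries held 8.52, 10.7 and 16.1 CPM in NIC and 7.41, 10.6 and 13.3 CPM in SAL (lowest, median and highest), and the fitted log2 difference was 0.066 (SE 0.15, 95% interval -0.25 to 0.38). The adjusted p was 0.97 by edgeR, the two-sided exact permutation p was 0.74, and 5.62% of genes had an unadjusted p under 0.05. The interval ran from 0.84-fold to 1.30-fold. With batch as a covariate the log2 difference was 0.40 (SE 0.27, unadjusted p = 0.16, adjusted p = 0.90 by edgeR), above the upper end of that interval, and within shared batches it was also 0.40 (SE 0.28).

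Female VTA libraries held 2.49, 9.67 and 12.6 CPM in NIC and 5.10, 6.96 and 12.1 CPM in SAL, and the fitted log2 difference was 0.19 (SE 0.28, 95% interval -0.39 to 0.77). The adjusted p was 0.86 by edgeR, the two-sided exact permutation p was 0.79, and 9.24% of genes had an unadjusted p under 0.05. Without NIC 2, the library with few dopaminergic markers and 12.5 CPM of Rasl10b, the log2 fold change was 0.10. The direction depended on batch. With batch as a covariate the value was -0.89 (SE 0.35, unadjusted p = 0.024, adjusted p = 1). Batches J and L held both treatments here. In batch J the NIC libraries held 4.54 and 8.81 CPM and the SAL libraries 6.88 and 12.1 CPM, and in batch L the NIC library held 2.49 CPM and the SAL libraries 5.10 and 9.49 CPM. The interaction of sex and treatment in VTA was -0.14 on the log2 scale (SE 0.33, 95% interval -0.80 to 0.53, adjusted p = 0.91 by edgeR), where 11% of genes had an unadjusted p under 0.05.

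**Figure D3:**
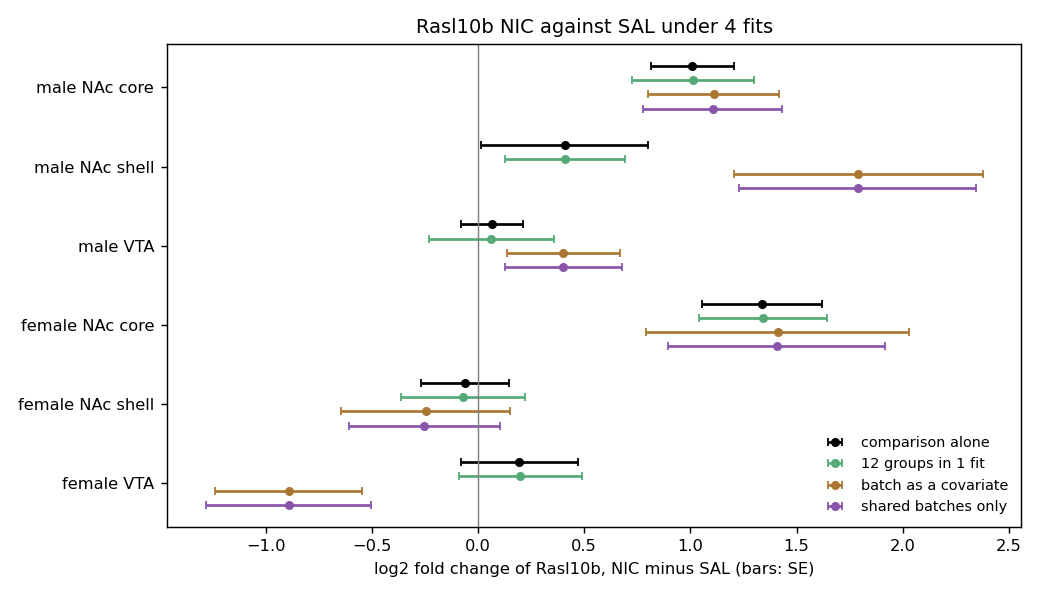
Log2 fold change of Rasl10b, NIC minus SAL (horizontal axis, bars are SE), in the 6 comparisons under 4 fits: the comparison alone, all 12 groups in 1 fit, batch as a covariate, and shared batches only. Both NAc core comparisons lie between 1.01 and 1.41 in all 4 fits, male NAc shell moves from 0.41 to 1.79 with batch, and female VTA moves from 0.19 to -0.89.

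The rats were also followed across their own regions. Among male NIC rats, NAc core was above VTA in 8 of 8 rats, with a mean within-rat difference of 0.69 ± 0.51 in log2 CPM (SD), and above NAc shell in 5 of 8. Without NIC 9, NAc core was above VTA in 7 of 7, by 0.54 ± 0.32, and above NAc shell in 5 of 7. Among male SAL rats it was above VTA in 2 of 7 and above NAc shell in 4 of 8, with mean differences of -0.16 ± 0.37 and -0.17 ± 0.88. Among female NIC rats, NAc core was above NAc shell in 6 of 7 and above VTA in 5 of 7, with mean differences of 0.89 ± 1.02 and 0.82 ± 1.26. Among female SAL rats it was above NAc shell in 2 of 8 and above VTA in 2 of 8, with mean differences of -0.46 ± 0.63 and -0.34 ± 0.48. In SAL rats of both sexes, then, NAc core was the region with the lowest group median, at 8.70 CPM in males and 5.93 CPM in females, and in NIC rats it had the highest, at 16.7 and 12.8 CPM. These differences contain the NAc core libraries and are descriptions.

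Levels were also compared between the regions of a rat. After the group means were removed, Rasl10b in NAc core and NAc shell had a Pearson r of 0.24 over 31 rats of both sexes, against a median over all genes of 0.12. By sex it was 0.55 over the 16 male rats (0.42 over 15 without NIC 9) and -0.13 over 15 female rats. NAc core and VTA had 0.073 and -0.060, and NAc shell and VTA had 0.24 and 0.15. Whether males and females differed in this was not tested. Male NIC 9 was the highest of its group in NAc core (29.2 CPM) and NAc shell (38.5 CPM), and at 8.71 CPM the second lowest in VTA. Female NIC 5 held 20.6 CPM in NAc core and 3.45 CPM in NAc shell, the lowest of that group. These values share animals, and several pairs share a batch.

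**Figure D4:**
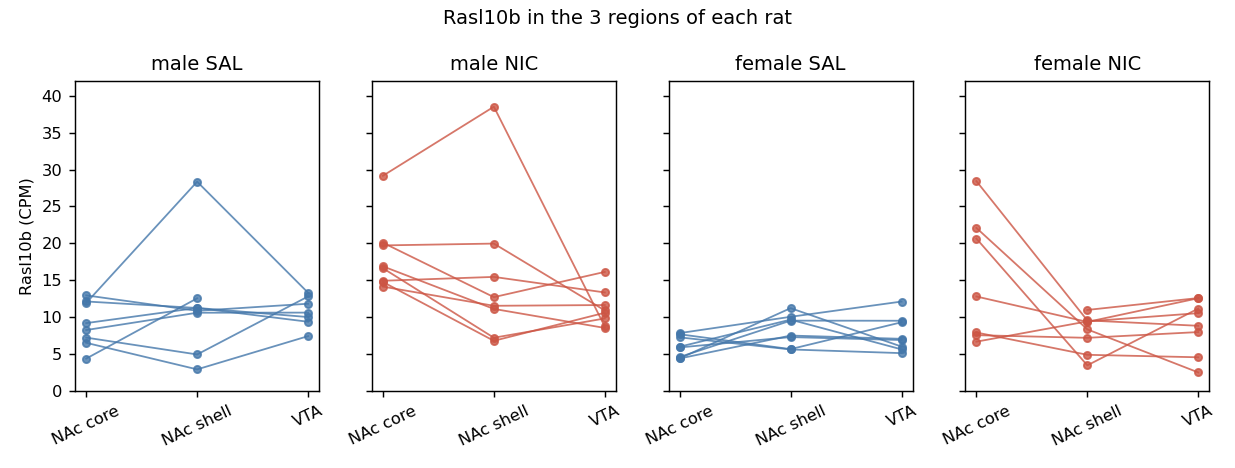
Rasl10b level (CPM, vertical axis) in NAc core, NAc shell and VTA, with 1 line for each rat, in 4 panels for male SAL, male NIC, female SAL and female NIC. Lines of male NIC rats fall from NAc core to VTA in 8 of 8 rats, and male NIC 9 stands at 29.2 CPM in NAc core and 38.5 CPM in NAc shell.

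Region and sex were tested where the NAc core libraries were not needed. VTA and NAc shell did not differ beyond their spread in males (log2 difference, VTA minus NAc shell, -0.30, SE 0.23, 95% interval -0.76 to 0.16, adjusted p = 0.23 by edgeR, and -0.097 without male 9) or in females (0.033, SE 0.18, interval -0.33 to 0.40, adjusted p = 0.87). This stood against 73.1% of genes with an adjusted p under 0.05 between these regions in males and 72.1% in females, so Rasl10b was among the minority of genes without a call. NAc shell was above VTA in 7 of 15 male rats (two-sided exact sign-flip permutation p = 0.81) and in 9 of 16 female rats (exact p = 0.92).

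Rasl10b was higher in males than in females in NAc shell, by 0.72 on the log2 scale (SE 0.24, 95% interval 0.24 to 1.21, adjusted p = 0.028 by edgeR), where 21% of genes had an adjusted p under 0.05. The call rested on single rats: without male NIC 9 the difference was 0.54 (adjusted p = 0.065), without male SAL 6 it was 0.57 (adjusted p = 0.067), and without both it was 0.38 (adjusted p = 0.15). In VTA the difference was 0.41 in the same direction (SE 0.16, 95% interval 0.077 to 0.74, adjusted p = 0.16), where 2.33% of genes had an adjusted p under 0.05. Sex cannot be told apart from the box number or, outside batch L, from batch. In batch L, with libraries of both sexes, the 2 male VTA libraries (NIC) held 8.71 and 10.9 CPM, and the 3 female VTA libraries held 2.49 CPM in NIC and 5.10 and 9.49 CPM in SAL. In NAc shell that batch held 1 male NIC library at 11.1 CPM and 1 female SAL library at 9.64 CPM.

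By median level the 12 groups ran from male NAc core NIC (16.7 CPM), female NAc core NIC (12.8), male NAc shell NIC (12.1) and male NAc shell SAL (11.0) through male VTA NIC (10.7), male VTA SAL (10.6), female VTA NIC (9.67), female NAc shell NIC (8.83), male NAc core SAL (8.70) and female NAc shell SAL (8.50) to female VTA SAL (6.96) and female NAc core SAL (5.93). The ranges of neighbouring groups in this order overlapped at every step. Rasl10b was thus expressed in every group, and the SAL medians lay within 5.93 to 11.0 CPM.

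Relatives of Rasl10b were read from a list of 34 Ras-type GTPases, of which 22 could be matched to a row of the table. The names come from gene tables of the study, 18 of the 22 from its tables on these samples, so the matched members are not independent evidence of change. At an unadjusted p under 0.05, 2 were higher and 2 lower in NIC in male NAc core (against 9.83% of all genes), 2 higher in female NAc core (6.45%), 0 in male NAc shell (2.46%), 3 higher and 3 lower in female NAc shell (10.1%), 1 higher and 1 lower in male VTA (5.62%), and 2 higher and 6 lower in female VTA (9.24%). Without NIC 9, 1 was higher and 1 lower in male NAc core. With batch as a covariate the 22 calls of 132 over the 6 comparisons became 6, while the share of all genes called went from 7.29% to 6.35%. Over the 22, the log2 fold changes had a median of 0.0046 in male NAc core and 0.028 in female NAc core, against -0.0064 and 0.00095 for all genes tested.

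In NAc core, the log2 fold changes of the 22 relatives ran from -0.30 to 0.37. Rasl10b was selected on its NAc core difference, so its larger value beside theirs was set by that choice. Closest by name were the Rasl genes, small GTPases of the same branch. Rasl11b was at 53.6 CPM in male NAc core NIC and 66.0 CPM in SAL (-0.30, SE 0.14, unadjusted p = 0.047), and at 41.2 and 39.6 CPM in females (0.052, SE 0.15). Rasl11a was at 8.12 and 9.96 CPM in males (-0.30, SE 0.14), and Rasl12 at 15.9 and 13.9 CPM (0.19, SE 0.091). Rerg, an oestrogen-regulated growth inhibitor, gave 0.0022 (SE 0.26) in males and -0.074 (SE 0.13) in females, and its relative Rergl was under 1 CPM in all NAc core groups.

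Rasd2, or Rhes, which is abundant in striatal neurons, was at 621 CPM in male NAc core NIC and 658 CPM in SAL, and at 942 and 956 CPM in females. Its log2 fold changes were -0.085 (SE 0.28) and -0.027 (SE 0.19). Diras1 was at 0.045 (SE 0.050) in males and 0.12 (SE 0.080) in females. Diras2 had an unadjusted p under 0.05 in female NAc core (0.32, SE 0.14) and in female VTA (0.41), and Rap2a, a Ras-like GTPase, in female NAc core (0.29), female NAc shell (0.23) and female VTA (0.17). Rem1, Rem2, Rrad and Gem belong to the RGK branch, which inhibits voltage-gated calcium channels. Rem1 had an unadjusted p under 0.05 in male NAc core (0.35, SE 0.16) and, in the opposite direction, in female VTA (-0.41), and Rrad in male VTA (0.21) and female VTA (-0.41). In female VTA, vessel and meningeal markers were lower in NIC too, at an unadjusted p under 0.05 for 6 of 7 endothelial genes (median log2 fold change of the list -0.32), 4 of 6 mural genes (-0.46) and 3 of 10 meningeal fibroblast genes (-0.73), against 9.24% of all genes, and their part in the values of the relatives was not tested. All members of these 3 lists were named in the study's tables on these samples, so the counts are not independent evidence of change. Rem2 and Gem gave 0.11 and -0.051 in male NAc core and -0.17 and 0.034 in female NAc core. Both had an unadjusted p under 0.05 in female NAc shell, Rem2 lower in NIC (-0.33) and Gem higher (0.43). The neuronal GTPase Rit2 was lower in male NAc core (-0.17, unadjusted p = 0.016) and higher in female NAc shell (0.22, unadjusted p = 0.038). Marker lists also differed in female NAc shell, at an unadjusted p under 0.05 and against 10.1% of all genes. Lower in NIC were 11 of 12 striatal projection neuron genes (median log2 fold change of the list -0.32). Higher were 5 of 7 ependymal (0.94), 5 of 7 hypothalamic (0.74) and 3 of 7 oligodendrocyte genes (0.30). All members of these lists were named in the study's tables on these samples, and their part in the values of the relatives was not tested.

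A list chosen for what is known of Rasl10b in heart was matched for 6 of 11 genes, which were 1 natriuretic peptide (Nppc), the receptors Npr1 and Npr2, and the transcription factors Mef2b, Mef2c and Mef2d. Of these, none had an unadjusted p under 0.05 in male or female NAc core, and the median log2 fold changes were -0.023 and 0.17. The exchange factors and GTPase-activating proteins that act on Ras were matched for 10 of 20, of which 1 was higher at an unadjusted p under 0.05 in male NAc core, against 9.83% of all genes, and 0 in female NAc core, against 6.45%. Without NIC 9 the male count was 0.

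The genes beside Rasl10b on chromosome 10 were taken from the gene order of RefSeq (assembly GRCr8), as the nearest 5 on each side whose names could be matched to a row of the table. Ap2b1, a subunit of the clathrin adaptor AP-2, lies 2 genes away. Ap2b1 was at 429 CPM in male NAc core NIC and 449 CPM in SAL (log2 fold change -0.069, SE 0.055), and at 0.0086 (SE 0.054) in females. The value of Ap2b1 was small beside that of Rasl10b in both sexes, an order set by the selection of Rasl10b on its NAc core difference. Farther out, Slfn4, Slfn2 and Slfn5 (Schlafen genes) gave -0.036, 0.073 and 0.12 in male NAc core and -0.47, -0.15 and -0.085 in female NAc core, and Heatr6, Tada2a and Aatf gave 0.071, -0.031 and -0.0021 in male NAc core. The chemokine gene Ccl6 (0.71, SE 0.30, at 1.42 and 0.863 CPM) and Acaca (acetyl-CoA carboxylase, 0.21, SE 0.088) had an unadjusted p under 0.05 in male NAc core (2 of 10, against 9.83% of all genes, and 1 of 10 without NIC 9), and 0 of 10 neighbours did in female NAc core (against 6.45%). Schlafen and chemokine genes have close paralogs, between which estimated counts can be split.

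Genes that moved with Rasl10b from rat to rat were found by Pearson r over the 94 libraries, in log2 CPM with group means removed, among 14452 genes with a mean of at least 1 CPM. These libraries share rats, batches and depth, and the values are descriptions. The highest r were 0.72 for Pcdhgc3 (a gamma protocadherin of neuronal cell contact), 0.68 for Pip4k2b (a phosphoinositide kinase), 0.67 for Trnp1 (a nuclear protein of cortical development), 0.66 for Ppp2r2c (a regulatory subunit of protein phosphatase 2A), 0.66 for Mef2d (an activity-regulated transcription factor), 0.66 for AABR07065498.1 and 0.64 for Ppp1r16b (a regulatory subunit of protein phosphatase 1). The other 3 of the first 10 had no symbol in the tables used here. Without the libraries of male rat 9, 8 of these 10 genes stayed among the first 10, and the r of Pcdhgc3 was 0.69. The ranking depended more on the measure and the region: 4 of the 10 stayed by Spearman's rho, 5 after centring within batch and 1 in NAc core alone, where the highest r was 0.78 for LOC103693780 and the lowest -0.72 for Tpd52. The likeness of Pcdhgc3 was 0.87 in males and 0.53 in females, and 0.60, 0.86 and 0.53 in NAc core, NAc shell and VTA. Gamma protocadherin genes share exons, so their counts can be split between them.

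The NAc core log2 fold changes of these 7 named genes were smaller than those of Rasl10b, an order set by the selection of Rasl10b on this difference. In male NAc core the log2 fold change was 0.085 for Pcdhgc3, 0.20 for Pip4k2b, 0.24 for Trnp1, 0.15 for Ppp2r2c, 0.12 for Mef2d, 0.50 for AABR07065498.1 and 0.39 for Ppp1r16b, and in female NAc core it was 0.15, 0.17, 0.41, 0.25, 0.22, 0.061 and 0.15 in the same order. Over the 12 group means, which hold the NAc core contrast that chose the gene, the highest r of named genes were 0.83 for Ptpn14 (a protein tyrosine phosphatase), 0.77 for Cdk5r1 (the p35 activator of Cdk5), 0.77 for Angel1, 0.76 for Ube3b (a ubiquitin ligase), 0.75 for Map3k9 (a mixed lineage kinase) and 0.75 for Rras2 (a Ras GTPase). Ptpn14 had log2 fold changes of 0.36 and 0.56 in male and female NAc core, and the other 4 of the first 10 had no symbol in the tables used here. Among those 4, ENSRNOG00000050374, with an r of 0.85 over group means, a mean of 12.2 CPM and an r of 0.094 within groups, had log2 fold changes of 1.25 and 0.76 in male and female NAc core.

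The lowest r were -0.58 for Rps21 and -0.57 for Rps14, both proteins of the small ribosomal subunit, with the other 3 of the 5 lowest unnamed. Ribosomal protein genes were then summed, a list made after these values were seen. Of 30 such genes with a matched name, 24 of them named in the study's tables on these samples, 28 had a negative r with Rasl10b over the 94 libraries, with a median r of -0.42 against -0.026 for all genes. The relation differed in value by region: the median r was -0.68 in NAc shell (30 of 30 negative), -0.39 in VTA (27 of 30) and 0.025 in NAc core (14 of 30). Against the summed level the r was -0.73 in NAc shell, -0.47 in VTA and 0.00031 in NAc core, and without male rat 9 it was -0.75 in NAc shell and -0.041 in NAc core. Other lists had an r as large. Over the 94 libraries it was -0.48 for the ribosomal sum and 0.49 for the 10 exchange factors and GTPase-activating proteins. It was 0.55 for 4 nicotinic receptor subunit genes (Chrna1, Chrna3, Chrnb2 and Chrnb4). Only these 4 of 16 listed subunits were matched, 2 of them through the study's tables on these samples. For the receptor genes it was 0.74 in NAc shell, 0.49 in VTA and 0.20 in NAc core, and for the Ras regulators 0.73, 0.43 and 0.42. Male shell SAL 6, with 28.4 CPM of Rasl10b, had the lowest ribosomal sum of its group at 7623 CPM (median 11410), and male shell NIC 13, the lowest of its group in Rasl10b at 6.77 CPM, had the highest at 12967 CPM (median 10977). SAL 6 also had the highest sums of its group for the receptor genes (34.3 CPM) and the Ras regulators (1141 CPM). No r was computed without SAL 6. In NAc core the ribosomal sums of NIC and SAL overlapped, with medians of 10742 and 11090 CPM in males and 11116 and 11189 CPM in females. At an unadjusted p under 0.05, 5 of the 30 genes were lower in NIC in female NAc core (against 6.45% of all genes), 2 lower in female NAc shell (10.1%), 17 lower in female VTA (9.24%), 9 higher in male VTA (5.62%) and 0 in male NAc core (9.83%) and male NAc shell (2.46%). With the sum as a covariate, a fit chosen after seeing the data, the log2 fold change of Rasl10b was 1.01 (SE 0.20) in male NAc core and 1.30 (SE 0.31) in female NAc core. In NAc shell it was 0.58 (SE 0.27, adjusted p = 1) in males (0.30 without NIC 9) and -0.26 (SE 0.17, adjusted p = 0.72) in females, and in female VTA it was -0.47 (SE 0.28, adjusted p = 1).

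**Figure D5:**
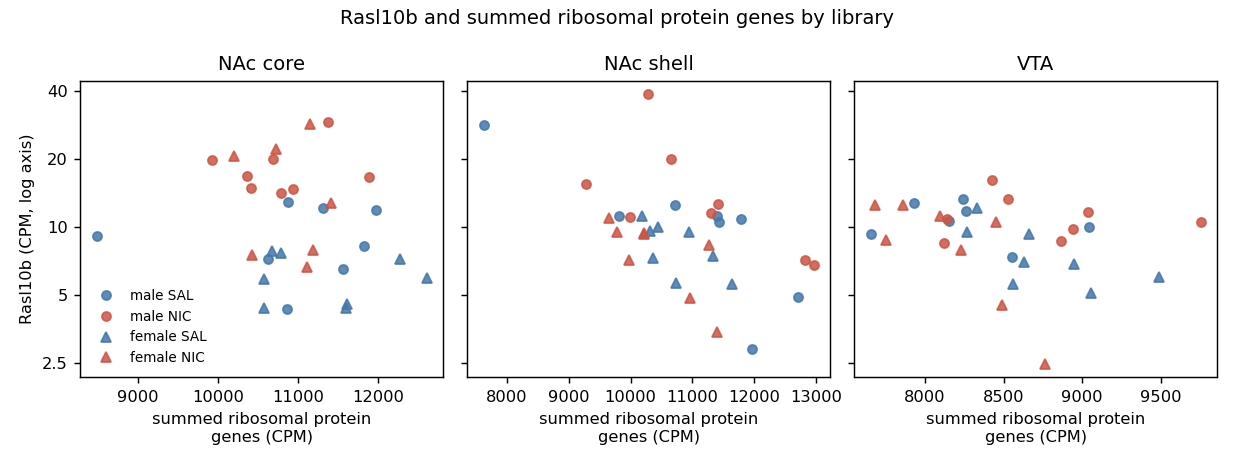
Rasl10b level (CPM, vertical log axis) against the summed level of 30 ribosomal protein genes (CPM, horizontal axis) in each library of NAc core, NAc shell and VTA, with circles for males, triangles for females, blue for SAL and red for NIC. In NAc shell the points fall from upper left to lower right (r of -0.73 after group means were removed), and in NAc core they show no such slope (r of 0.00031).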

How the data were processed

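Bulk RNA-seq libraries of VTA, NAc core and NAc shell were grouped by sex, region and treatment from the labels. The authors trimmed the reads with fastp 0.20.0 and quantified them with Salmon 0.12.0 on the Rnor 6 transcripts, and the deposited table holds estimated counts per gene as whole numbers. Such counts split reads shared by near-identical genes between them. Gene names came from the gene name columns of the study's tables and matched 7926 of 17637 identifiers.

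Genes with a normalised count above 10 in at least 3 of the 94 libraries were kept (16879), and Rasl10b passed. NIC and SAL were compared within sex and region with edgeR 4.0.16 (R 4.3.3, limma 3.58.1), using TMM scaling, the quasi-likelihood test without covariates and Benjamini-Hochberg adjustment over all genes tested. The SE is the absolute log2 fold change divided by the square root of F. Levels are TMM-scaled CPM, and log2 CPM used a prior count of 2. DESeq2 1.42.0, other filters, batch terms, shared batches and single omitted libraries were alternatives. On simulated counts for male NAc core (16879 genes, 200 of them changed by 1 on the log2 scale), the test recovered 89.5% at an adjusted p under 0.05. It also called 10 unchanged genes. The changed genes had a mean of at least 1 CPM, and counts were drawn independently, without batch or tissue differences. This rate therefore does not describe the power in the real libraries.

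The gene, the lists and the tests were chosen with earlier results of these data known. Genes named in the text were Rasl10b, its nearest relatives and any relative with an unadjusted p under 0.05 in 2 or more comparisons, 5 neighbours on each side, the genes of highest and lowest r, and the 3 most abundant markers of a list that differed. Some genes are not reported here. Animal numbers in the titles pair the regions of a rat, and the median r over genes of the deviations of VTA and NAc shell was 0.043 within rats and -0.0056 between rats. The p-values measure the spread between rats.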

Additional observations from a re-analysis of the deposited data

Results flagged for a closer look

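In all, 3 libraries were far from the rest of their group in Rasl10b, by Dixon's criterion at the 95% level, which chance meets in about 1 of 20 groups. The criterion was applied to CPM, and on the log2 CPM scale none of the 3 met it. They were male NAc core NIC 9 at 29.2 CPM (the next highest library of its group held 20.1 CPM), male NAc shell NIC 9 at 38.5 CPM (next highest 20.0 CPM) and male NAc shell SAL 6 at 28.4 CPM (next highest 12.5 CPM). NIC 9 is the same rat in both regions, and its libraries were both prepared in batch C. Its NAc core library held 36.3 CPM of summed dopaminergic markers and 44.3 CPM of choroid plexus markers, and its NAc shell library 63.5 and 11.4 CPM, each outside the range of the other male libraries of the labelled region and on the side of the other region. Whether the 2 libraries were exchanged was not tested. Without NIC 9 the log2 fold change of Rasl10b among males was 0.88 in NAc core and 0.056 in NAc shell. The library labelled female NAc core NIC 1, which entered no comparison, held 11.8 CPM of Rasl10b, above each of the 8 female NAc core SAL libraries, and 329 CPM of Th.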

How the results depend on the processing

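Over 15 results, 225 of 246 alternatives kept the direction and the side of the threshold (or, without a test, the value within 1 SD). Counts of list members and of like genes were scored instead by their ratio to the main count. A value without a call could move far and still be kept, as male NAc shell did from 0.41 to 1.79 with batch. In NAc core the log2 fold change of Rasl10b ran from 0.70 to 1.11 in males and from 1.22 to 1.44 in females over the fits, and from 0.88 to 1.10 and from 1.11 to 1.47 with single libraries left out. In female VTA it turned from 0.19 to -0.89 with batch as a covariate and within shared batches, and to -0.47 with the ribosomal covariate chosen after seeing the data. With batch as a covariate and within shared batches the value was 0.40 in male VTA (0.066 without batch) and -0.25 in female NAc shell (-0.064). With 1 library left out, the value ran from -0.025 to 0.12 in male VTA, from -0.15 to 0.047 in female NAc shell, from 0.056 to 0.74 in male NAc shell and from 0.097 to 0.33 in female VTA. The difference between VTA and NAc shell in females, 0.033, was -0.0048 with the replicate block of rats and -0.12 in SAL rats only, and ran from -0.054 to 0.097 with 1 rat left out. In males the replicate block gave -0.076, and without 1 rat the value ran from -0.37 to -0.097. The replicate block changed no call. NIC and SAL rats share no numbers, so their comparison has no paired form. The difference between the sexes in NAc shell lost its call without male 9 (0.54), male 6 (0.57) or both (0.38). Over the 6 comparisons, the Ras GTPase genes had 22 of 132 calls at an unadjusted p under 0.05, 6 with batch as a covariate and 20 without the NAc libraries of male 9, and the neighbours 10 of 60, 6 and 9, where 7.29%, 6.35% and 6.67% of all genes were called under these fits. Of the 10 genes most like Rasl10b, 4 stayed among the first 10 by Spearman's rho, 5 after centring within batch and 1 in NAc core alone. The cause of these changes was not tested. With 51 to 796 counts of Rasl10b per library and about 8 rats a group, the intervals above set what could be seen.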
